A study of Homo sapiens with 6 samples.

Results

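The genes described are 40 components of the machinery that moves newly made proteins into the endoplasmic reticulum (ER) and onward to the Golgi. They were taken by name from the gene column of an RNA-Seq table of OVCAR5 cells treated with SpiD7. The rule used no measured value, but the genes were chosen with earlier results of these data known. All 40 were found among the 29982 gene symbols, and all 40 were among the 13287 genes whose FPKM averaged 1 or more (FPKM is a level corrected for transcript length and for the size of the library). By role they comprised 8 genes of the signal recognition particle (SRP) and its receptor, 10 of the SEC61 translocon and its partners, 5 of the signal peptidase complex, 10 of the COPII coat and 7 of the COPI coat.

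A signal sequence that emerges from the ribosome is bound by SRP, which docks on its receptor at the ER membrane and passes the nascent chain to the SEC61 channel, where signal peptidase removes the signal sequence. Folded cargo leaves the ER in COPII-coated vesicles, and COPI-coated vesicles carry escaped ER proteins and receptors back from the Golgi. In textbook accounts of the unfolded protein response (UPR), the transcription factors XBP1 and ATF6 raise many genes of this pathway together with ER chaperones.

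OVCAR5 is an established human ovarian cancer cell line, and SpiD7 is a dimeric spirocyclic compound designed to modify cysteines covalently. The study sequenced RNA from 2 vehicle (DMSO) libraries, 2 libraries of cells given 10 μM SpiD7 for 2 h, and 1 library each after 6 h and 12 h of the same dose. The labels give no duration for the vehicle and do not say whether libraries came from separate cultures, so that the spread between them may be technical. For DMSO and 2 h, the deposited replicate 2 values behaved as means of both libraries of the group, and replicate 2 was calculated from them. These libraries are called recovered, and the others first. The difference between first and recovered library was partly shared by DMSO and 2 h (correlation 0.858 over the 40 genes, 0.369 over all genes tested). Its source is not given by the labels and was not tested. Fold changes after 6 h and 12 h are taken here against both DMSO libraries, while the deposited comparisons set them against the first.

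The epithelial markers EPCAM (77.4 to 86.5 FPKM), KRT8 (1459 to 2194 FPKM) and KRT18 (1242 to 1742 FPKM) were present in every library, as were KRT19 and CDH1. Of the ovarian lineage genes, PAX8 stood at 1.64 to 2.12 FPKM and WT1 at 0.0317 to 0.141 FPKM. The summed level of 4 markers of other cell types (PTPRC, PECAM1, COL1A1 and COL3A1) was 1.69 and 13.4 FPKM in DMSO (first and recovered library), 2.07 and 10.1 FPKM after 2 h, 1.82 after 6 h and 2.88 after 12 h. The higher sums came from the endothelial gene PECAM1, at 10.7 and 7.74 FPKM in the recovered DMSO and 2 h libraries, while the leukocyte gene PTPRC was at or near 0 throughout. The bearing of PECAM1 on the results that follow was not tested. In bulk RNA, fewer cells of a type and less RNA per cell cannot be told apart.

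None of the 40 genes stood more than 2-fold above or below DMSO at any time. The measure here is the log2 fold change, the mean of log2(FPKM + 0.1) in the SpiD7 libraries minus that in both DMSO libraries. Over all 13287 genes, 2.32% were more than 2-fold higher and 0.662% more than 2-fold lower after 2 h, 5.66% and 3.1% after 6 h, and 6.48% and 3.76% after 12 h. Also at the 1.5-fold limit the count was 0 of 40 in both directions at each time, where 5.97% of all genes were higher and 1.41% lower after 2 h, 11.8% and 8.67% after 6 h, and 13% and 13.5% after 12 h. Against either DMSO library taken alone, 0 of 40 members passed 2-fold after 6 h or 12 h. Of all genes, 6.28% were more than 2-fold higher and 0.993% lower than the first DMSO library after 6 h, and 8.21% and 4.03% after 12 h. The corresponding shares for the recovered DMSO library were 7.76% and 7.77% after 6 h, and 7.01% and 7.56% after 12 h. In the same 12 h library HSPA5, which encodes the ER chaperone BiP, was at 1378 FPKM, beside 197 and 337 FPKM in the DMSO libraries, a log2 fold change of 2.42.

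The 40 log2 fold changes ran from -0.19 (SSR1) to 0.23 (SEC24A) after 2 h, from -0.44 (SEC23A) to 0.44 (SRPRB) after 6 h, and from -0.50 (SEC23A) to 0.56 (SRPRB) after 12 h. Their median was -0.031, 0.099 and 0.11 at the 3 times, and that of all genes tested was -0.0082, 0.033 and -0.051. The size of the difference from DMSO after 12 h, regardless of direction, had a median of 0.22 for the members and 0.33 for all genes. The DMSO libraries themselves also lay closer together for the members, with a median difference of 0.17 against 0.39 on the log2 scale, and 0 of 40 were more than 2-fold apart (13.5% of all genes). More than 1.5-fold between the DMSO libraries lay 5 members (SRP72, SSR3, SPCS1, SEC24A and SEC24D), beside 32.6% of all genes.

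**Figure D1:**
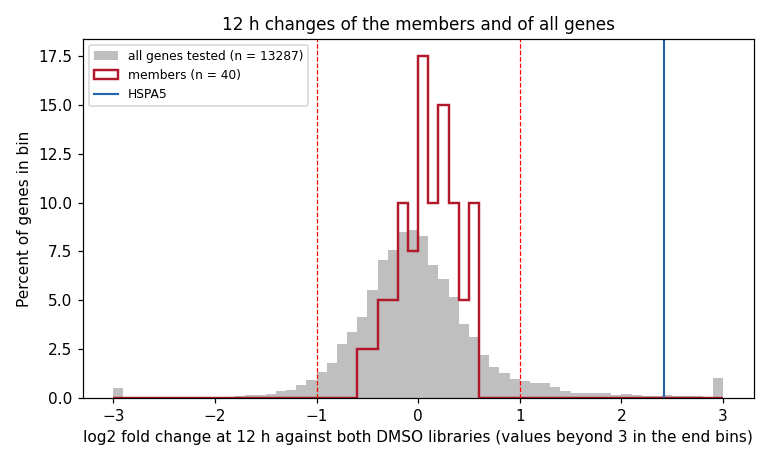
Log2 fold change after 12 h against both DMSO libraries (horizontal axis) and the percent of genes in each bin (vertical axis), for all 13287 genes tested (grey) and the 40 members (red outline), with values beyond the ends placed in the end bins. Dashed lines mark 2-fold, and the blue line marks HSPA5 at 2.42; the members all lie between -0.50 and 0.56.

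The limma test called 0 of 40 members at an adjusted p under 0.05 at each time, beside 0.0226% of all genes after 2 h, 0.294% after 6 h and 0.339% after 12 h. At an unadjusted p under 0.05 limma also gave 0 of 40, beside 2.84%, 5.55% and 9.19% of all genes. For the single libraries after 6 h and 12 h, the spread was taken from the DMSO and 2 h pairs, which assumes that a lone library varies as they do. The 95% interval of the fold change lay within 2-fold in both directions for 34 of 40 members after 2 h (52.3% of all genes), 25 after 6 h (31.2%) and 22 after 12 h (24.8%). Members were higher in level than most genes (median 46.6 and 45.9 FPKM in DMSO, against 11.1 and 10.9 for all genes tested), and 39 of 40 averaged at least 5 FPKM. Among the 9569 genes at or above that level, the interval lay within 2-fold for 58.9% after 2 h (33 of 39 members), 36.8% after 6 h (25) and 29.2% after 12 h (22), and 4.36% stood more than 2-fold higher and 2.77% lower after 12 h. The 6 members with a wider interval after 2 h were SRP72, SRPRB, SSR3, SPCS1, SEC24A and SEC24D. An interval within 1.5-fold was reached by 15 members after 2 h (10.4% of all genes) and by COPZ1 alone after 12 h (0.467%), so that for most members a difference of that size lies inside the interval of the later libraries.

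The position of each library relative to both DMSO libraries is given as a description, with no test. Falling outside both depends on how far apart they are. The DMSO libraries lay closer together for the members (median 0.17 against 0.39 on the log2 scale). The shares over all genes are therefore not a like baseline for these counts. Above both DMSO libraries stood 20 of 40 members after 6 h (31.6% of all genes) and 21 after 12 h (30.1%). Below both stood 10 after 6 h (29.2%) and 9 after 12 h (35.6%). The 6 h and 12 h libraries were on the same side of both DMSO libraries for 26 of 40 members (42.3% of all genes). Both 2 h libraries were on one side of both DMSO libraries and a later library on the other for 5 of 40 members (5% of all genes). At 2 h, both libraries were above both DMSO libraries for SEC62 alone (13.7% of all genes) and below both for 6 members, SRPR, SEC61G, SSR1, SEC24C, SAR1B and COPE (8.1%). At 12 h the members above both DMSO libraries made up 5 of 8 SRP genes, 7 of 10 SEC61 genes, 2 of 5 signal peptidase genes, 5 of 10 COPII genes and 2 of 7 COPI genes. These are counts over genes in the same 12 h library and DMSO libraries, not independent observations.

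**Figure D2:**
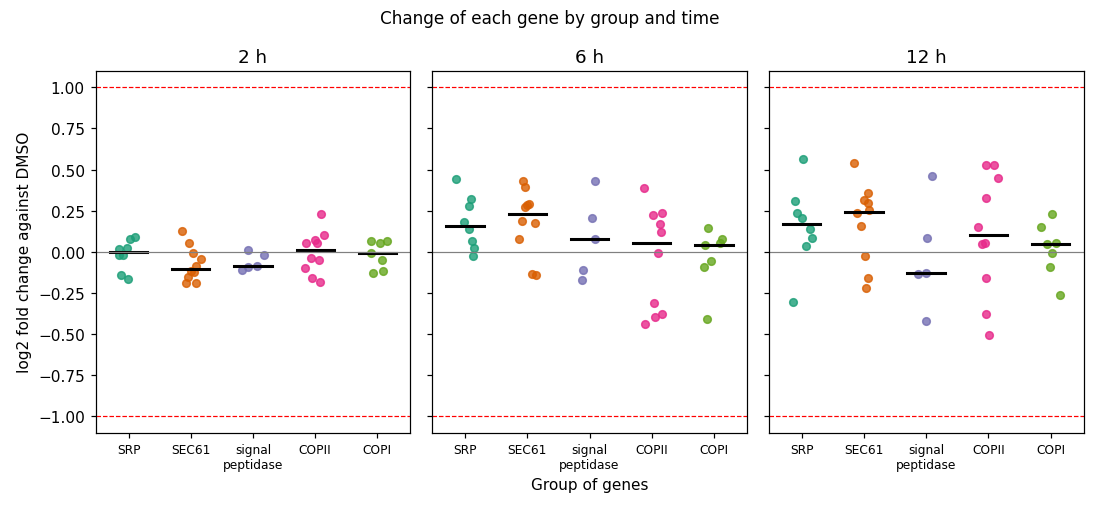
Log2 fold change against DMSO (vertical axis) of each member by group (horizontal axis) after 2 h, 6 h and 12 h. Each point is 1 gene, black bars are group medians and dashed lines mark 2-fold; no point reaches 2-fold. The SEC61 median is -0.10 after 2 h (0.022 without the first DMSO library, but -0.089 and -0.13 between same-numbered libraries). After 12 h it is 0.24 (0.14 without the recovered DMSO library).

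Promoters were searched for elements to which XBP1 and ATF6 are known to bind, since the rule that chose the genes used no sequence. The window was the 250 bases before each gene's start in the RefSeq promoters of GRCh38.p14, on both strands, and 37 of 40 members had an entry (not SRPR, SPCS1 and SEC24D). The ER stress response element (CCAAT, any 9 bases, CCACG) was in 0 of 37 member promoters and 0.0806% of all 27305 promoters, and its short form (ATTGG, any 1 base, CCACG) in 0 of 37 and 0.0513%. The core of the UPR element, TGACGTG, was in 6 of 37 member promoters (16.2%), in 1.71% of all promoters and in 2.17% of the 9303 promoters of tested genes. The cyclic AMP response element TGACGTCA was in 0 of 37 and in 1.77% of all promoters, and no match counted as both. The 6 windows with the UPR element core are listed after that of HSPA5, which holds the full ER stress response element. Each is written 5′ to 3′ along the gene's strand, with the matched bases in capitals (CACGTCA is the core read from the other strand).
HSPA5, chr9:125241386-125241414, minus strand: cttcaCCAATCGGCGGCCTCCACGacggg
COPB1, chr11:14499841-14499869, minus strand: ccacccccttcCACGTCAgccaaggactc
COPB2, chr3:139389825-139389853, minus strand: ctcagcggcacCACGTCAcggcccttagt
SEC13, chr3:10321238-10321266, minus strand: ctctggtctcgCACGTCActggaggatag
SEC24A, chr5:134648595-134648623, plus strand: gtgagagtcggTGACGTGgcggcgaggcc
SEC62, chr3:169966780-169966806, plus strand: cctcctcgctcCACGTCAgagggaacc
SRP19, chr5:112861165-112861193, plus strand: agtcttcatgcCACGTCAgagactagaga

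The match nearest to a RefSeq start was that of SEC62, 10 to 16 bases before it, and the farthest was that of SEC24A, 173 to 179 bases before it, in an annotated exon of the divergent gene SAR1B. In GENCODE 29, the SEC62 and COPB1 matches lie after the start of the gene's longest extent, in an exon of that same gene, and the COPB2 match lies in an exon of AC097103.2. At 12 h the log2 fold changes of these 6 genes ran from -0.22 (SEC62) to 0.53 (SEC24A), with a median of 0.18. The 31 members with a promoter entry and no match ran from -0.50 to 0.56, with a median of 0.081. The ranges of both sets overlapped, and a match of letters does not show that a factor binds.

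Targeting to the ER membrane is carried out by SRP9 and SRP14, which bind the SRP RNA and slow elongation, SRP19, which helps to assemble the particle, SRP54, the GTPase that recognizes signal sequences, SRP68 and SRP72, and the receptor subunits SRPR and SRPRB. The median log2 fold change of these 8 genes was -0.0016, 0.16 and 0.17 after 2 h, 6 h and 12 h, and with a library left out it ran from -0.076 to 0.062, from 0.095 to 0.21 and from 0.17 to 0.28. Against the mean of both DMSO libraries, the highest after 12 h was SRPRB, the membrane anchor of the receptor, and the lowest was SRP9.

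SRPRB (chr3:133784033-133825772 in hg38, plus strand) stood at 49.97 and 33.7 FPKM in DMSO (first and recovered library), 46.0 and 29.97 FPKM after 2 h, 55.9 after 6 h and 60.7 after 12 h. Both late libraries were above both DMSO libraries, by 1.48-fold after 12 h against their mean, while the 2 h libraries lay between and below them. The 12 h log2 fold change was 0.28 against only the first DMSO library and 0.85 against only the recovered one. Against the first alone, SEC24D (0.94), SEC24A (0.91), SEC61A2 (0.73), SAR1A (0.50), SEC11C (0.43), SRPR (0.32) and SRP14 (0.32) were higher than SRPRB. Of the exon bases of SRPRB, 17.313% are shared with AC080128.2 and TF. The limma 95% interval of the 12 h log2 fold change was -0.71 to 1.84 (adjusted p = 0.76). SRPR, the other subunit of the receptor, stood at 34.2 and 34.6 FPKM in DMSO, 31.1 and 30.2 after 2 h, 35.0 after 6 h and 42.7 after 12 h. Its DMSO libraries were close, both 2 h libraries were below them and the 12 h library was above (log2 fold change 0.31, limma adjusted p = 0.70). SRP9 stood at 152 and 158 FPKM in DMSO, 157 and 147.5 after 2 h, 152 after 6 h and 125 after 12 h. The 12 h library was the lowest of the 6 for SRP9 (log2 fold change -0.31, limma adjusted p = 0.71), while its partner SRP14 was at 140 and 156.5 FPKM in DMSO and 175 FPKM after 12 h.

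Of the other SRP genes, SRP19 (34.0 to 43.6 FPKM) and SRP54 (45.1 to 53.0 FPKM) were above both DMSO libraries after 6 h or 12 h by small margins, with 12 h log2 fold changes of 0.20 and 0.14. SRP68 (48.5 to 62.6 FPKM) and SRP72 (39.9 to 65.6 FPKM) lay between the DMSO libraries after 12 h, with log2 fold changes of 0.081 and 0.036. In GENCODE 29, 38.457% of the exon bases of SRP19 are shared with AC008575.1, REEP5 and ZRSR2P1, and reads there may belong to those genes.

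The SEC61 channel consists of SEC61A1 or its paralog SEC61A2, which form the pore, and the small subunits SEC61B and SEC61G. SEC62 and SEC63 assist the entry of finished chains, SEC63 by recruiting BiP, and SSR1 to SSR4 form the translocon-associated TRAP complex. The 10 genes had a median log2 fold change of -0.10 after 2 h, 0.23 after 6 h and 0.24 after 12 h. Leaving out the first DMSO library put the 2 h value at 0.022, and leaving out the recovered 2 h library put it at 0.033. Both settings partly compare first with recovered libraries, whose difference was partly shared by DMSO and 2 h. Between same-numbered libraries the 2 h median was -0.089 (first) and -0.13 (recovered). Without the recovered DMSO library the later medians were 0.11 and 0.14, and without the first they were 0.30 and 0.38. At 2 h, 7 of the 10 (SEC61A1, SEC61B, SEC61G and all 4 SSR genes) were lower than DMSO in both same-numbered pairs, first with first and recovered with recovered. The same held for 19 of the 40 members, 34.4% of all genes and 38.5% of genes averaging at least 5 FPKM. Replicate differences were shared more strongly among the members (correlation 0.858) than over all genes (0.369), so neither of these percentages is a like baseline. At 12 h, 7 of 10 were above both DMSO libraries (SEC61A1, SEC61A2, SEC61B, SEC61G, SEC63, SSR2 and SSR4), beside 30.1% of all genes. The median distance between the DMSO libraries was 0.23 for these 10 genes and 0.39 for all genes, so the latter share is not a like baseline.

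SEC61A1 stood at 167 and 132 FPKM in DMSO, 152 and 128 after 2 h, 167.5 after 6 h and 177 after 12 h. The 6 h and 12 h libraries exceeded the higher DMSO library by small margins only, and the 12 h log2 fold change was 0.25 (limma 95% interval -0.55 to 1.06). SEC61A2, the lowest member in level, stood at 2.60 and 3.44 FPKM in DMSO, 3.94 and 2.71 after 2 h, 3.96 after 6 h and 4.39 after 12 h. Its 12 h log2 fold change of 0.54 was the highest of the group (limma adjusted p = 0.72), but the first 2 h library was nearly as high as the 6 h library. SEC61B was at 155.5 and 128 FPKM in DMSO and at 172 and 180 FPKM after 6 h and 12 h. SEC61G, the highest member in level, was at 327 and 365 FPKM in DMSO, 315 and 322 after 2 h, 364 after 6 h and 384 after 12 h. For SEC61G the 2 h libraries were below both DMSO libraries and the 12 h library was above them, within a total range of 315 to 384 FPKM.

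SEC62 had the lowest 12 h value of the group, at 36.0 and 38.1 FPKM in DMSO, 38.6 and 38.4 after 2 h, 33.7 after 6 h and 31.8 after 12 h (log2 fold change -0.22, limma adjusted p = 0.79). It was thus slightly above DMSO after 2 h and below it in both later libraries. SEC63 was at 16.8 and 14.8 FPKM in DMSO and at 21.3 and 19.4 FPKM after 6 h and 12 h, above both DMSO libraries in each. Of the TRAP genes, SSR2 was at 152 and 137 FPKM in DMSO and 179.5 FPKM after 12 h, and SSR4 at 147 and 117.5 FPKM in DMSO and 154.5 FPKM after 12 h. SSR1 was at 22.1 and 20.6 FPKM in DMSO and 17.55 to 19.9 FPKM in all SpiD7 libraries, below both DMSO libraries at each time (log2 fold changes -0.14 to -0.19). SSR3 ranged from 105 to 60.3 FPKM between the DMSO libraries, and the 12 h library, at 78.0 FPKM, lay between them. The TRAP subunits thus did not share a direction after 12 h.

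**Figure D3:**
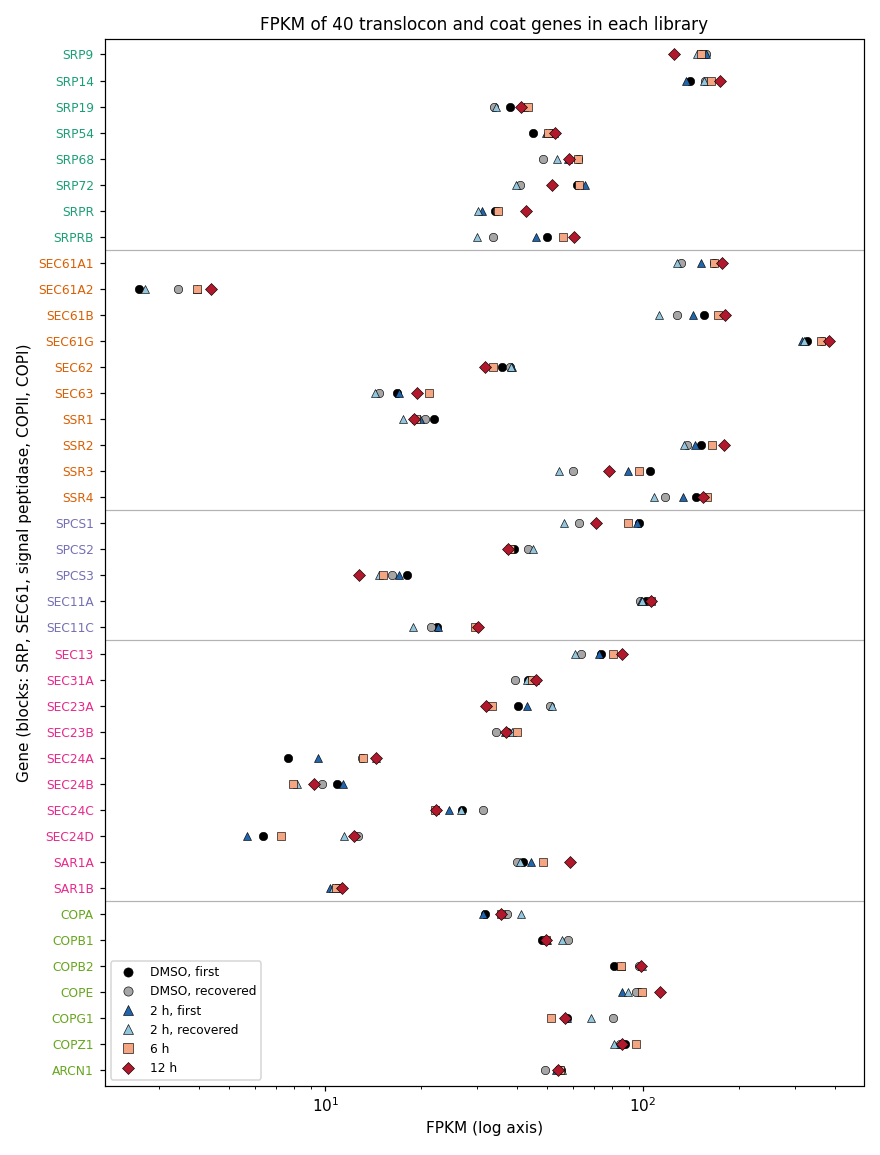
FPKM (horizontal log axis) of the 40 members (rows, in blocks by group), with a symbol for each of the 6 libraries. The symbols of each gene cluster within a narrow range next to the span between genes, from SEC61A2 at 2.60 to 4.39 FPKM to SEC61G at 315 to 384 FPKM.

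Signal sequences are cut by the signal peptidase complex, with SEC11A or SEC11C as the catalytic subunit and SPCS1, SPCS2 and SPCS3 as its other subunits. The median log2 fold change of the 5 genes was -0.085, 0.080 and -0.13 after 2 h, 6 h and 12 h, but -0.037 after 6 h without the recovered DMSO library and 0.12 after 12 h without the first. SEC11C was the highest and SPCS3 the lowest after 12 h. SEC11C (chr18:59139477-59158836, plus strand) stood at 22.4 and 21.6 FPKM in DMSO, 22.6 and 18.9 after 2 h, 29.7 after 6 h and 30.2 after 12 h. Both late libraries were above all 4 DMSO and 2 h libraries, by 1.37-fold after 12 h against the DMSO mean (limma 95% interval of the log2 fold change -0.20 to 1.12, adjusted p = 0.64). SEC11A, its paralog, stood at 102 and 97.6 FPKM in DMSO, 98.2 and 99.0 after 2 h and 106 after 6 h and 12 h. Its whole range over 6 libraries was 97.6 to 106 FPKM, the 12 h log2 fold change being 0.082.

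SPCS3 stood at 18.1 and 16.2 FPKM in DMSO, 17.1 and 14.8 after 2 h, 15.2 after 6 h and 12.8 after 12 h (log2 fold change -0.42, limma adjusted p = 0.67). SPCS3 and SRP9 were the 2 members whose group mean was lower at each step from DMSO to 12 h, beside 10.7% of all genes. SPCS2 (37.55 to 45.2 FPKM) was also below both DMSO libraries after 6 h and 12 h, with log2 fold changes of -0.11 and -0.13. SPCS1 was at 97.0 and 62.7 FPKM in DMSO and 71.3 FPKM after 12 h, between them. In the annotation 69.426% of its exon bases are shared with GLT8D1 and NEK4, so its values are uncertain.

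The COPII coat is started by the GTPases SAR1A and SAR1B, its inner layer pairs SEC23A or SEC23B, which activate the GTPase, with a cargo-binding SEC24 protein (SEC24A to SEC24D), and its cage is built of SEC13 and SEC31A. The median log2 fold change of the 10 genes was 0.0079, 0.055 and 0.10 (-0.038 and -0.00023 after 2 h and 6 h without the first DMSO library), and the group spread from -0.50 to 0.53 after 12 h. The median size of the difference regardless of direction was 0.35 after 12 h, beside 0.33 for all genes tested and 0.30 for genes averaging at least 5 FPKM. The median distance between the DMSO libraries was 0.18 for these 10 genes and 0.39 for all genes tested, so the value over all genes is not a like baseline. Against the DMSO mean, SAR1A and SEC24A were the highest, SEC23A and SEC24C the lowest.

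SAR1A (chr10:70147289-70170523, minus strand) stood at 41.8 and 40.2 FPKM in DMSO, 44.3 and 41.0 after 2 h, 48.3 after 6 h and 59.1 after 12 h. Its DMSO libraries were close together, and both late libraries were above all the others (1.44-fold after 12 h). Of all members its limma p after 12 h was the lowest, at 0.063 before and 0.57 after adjustment, with a 95% interval of -0.050 to 1.10 for the log2 fold change. SAR1B stayed at 10.4 to 11.3 FPKM in all 6 libraries, with a 12 h log2 fold change of 0.054.

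SEC24A stood at 7.63 and 13.1 FPKM in DMSO, 9.49 and 14.5 after 2 h, 13.1 after 6 h and 14.5 after 12 h. Its log2 fold change after 12 h was 0.53 against the DMSO mean, but this was 0.91 if only the first DMSO library was used and 0.15 if only the recovered one was. SEC24D was likewise at 6.37 and 12.7 FPKM in DMSO and 5.67 and 11.4 FPKM after 2 h, and its 6 h (7.25 FPKM) and 12 h (12.3 FPKM) libraries lay between the DMSO values. For both genes the distance between replicates was larger than any distance between group means. SEC24C stood at 26.9 and 31.4 FPKM in DMSO, 24.6 and 26.7 after 2 h, 22.1 after 6 h and 22.3 after 12 h, below both DMSO libraries in all 4 SpiD7 libraries (12 h log2 fold change -0.38, limma adjusted p = 0.69). SEC24B was at 10.9 and 9.81 FPKM in DMSO, 11.4 and 8.16 after 2 h, and 7.91 and 9.22 after 6 h and 12 h. Of the exon bases of SEC24C, 41.992% are shared with AC022400.8, so that its level may include reads of that gene.

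SEC23A (chr14:39031919-39109646, minus strand) stood at 40.5 and 51.1 FPKM in DMSO, 43.2 and 51.8 after 2 h, 33.5 after 6 h and 32.0 after 12 h. The late libraries were below all DMSO and 2 h libraries, and the 12 h log2 fold change of -0.50 was the lowest of all members (limma 95% interval -1.30 to 0.29, adjusted p = 0.67). SEC23B was at 37.3 and 34.5 FPKM in DMSO, 36.8 and 38.7 after 2 h, 40.3 after 6 h and 37.1 after 12 h. Of the cage genes, SEC13 was at 74.0 and 63.7 FPKM in DMSO and 80.1 and 86.0 FPKM after 6 h and 12 h, and SEC31A at 43.4 and 39.4 FPKM in DMSO and 44.9 and 45.9 FPKM after 6 h and 12 h. Both cage genes were above both DMSO libraries after 6 h and after 12 h. SEC31A, SEC24A, SAR1A and SEC61A2 were the 4 members whose group mean was higher at each step from DMSO to 12 h, beside 8.78% of all genes.

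Ratios between paralogs do not depend on how a library was scaled, and 4 of 7 ratios had both late libraries on the same side of both DMSO libraries. No such share was computed for ratios of other gene pairs, and the 42.3% of single genes is not a background for ratios. The 7 ratios are not independent, since 3 share SEC24C as denominator and all use the same libraries. SEC11C over SEC11A, the pair of catalytic peptidase subunits, was 0.219 and 0.221 in DMSO, 0.230 and 0.190 after 2 h, 0.281 after 6 h and 0.286 after 12 h. SEC23B over SEC23A was 0.921 and 0.675 in DMSO, 0.851 and 0.746 after 2 h, 1.20 after 6 h and 1.16 after 12 h, so that the order of the paralogs by FPKM was the opposite in the late libraries. SEC24A over SEC24C was 0.284 and 0.416 in DMSO, 0.386 and 0.542 after 2 h, 0.594 after 6 h and 0.648 after 12 h. These 3 ratios were higher in both late libraries than in each of the 4 DMSO and 2 h libraries. SAR1B over SAR1A was 0.260 and 0.270 in DMSO, 0.234 and 0.258 after 2 h, 0.224 after 6 h and 0.191 after 12 h, the late libraries being the lowest.

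The 12 h shifts against the DMSO mean were 0.38 for SEC11C over SEC11A, 0.55 for SEC23B over SEC23A, 0.92 for SEC24A over SEC24C and -0.47 for SAR1B over SAR1A on the log2 scale, where the DMSO libraries differed by 0.011, -0.45, 0.55 and 0.057. The other 3 ratios, SEC61A2 over SEC61A1, SEC24B over SEC24C and SEC24D over SEC24C, did not have both late libraries on 1 side of DMSO. With 1 library at each late time these ratios have no replicate check and were not tested. How reads that match both paralogs were counted is not given in the sources used here.

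**Figure D4:**
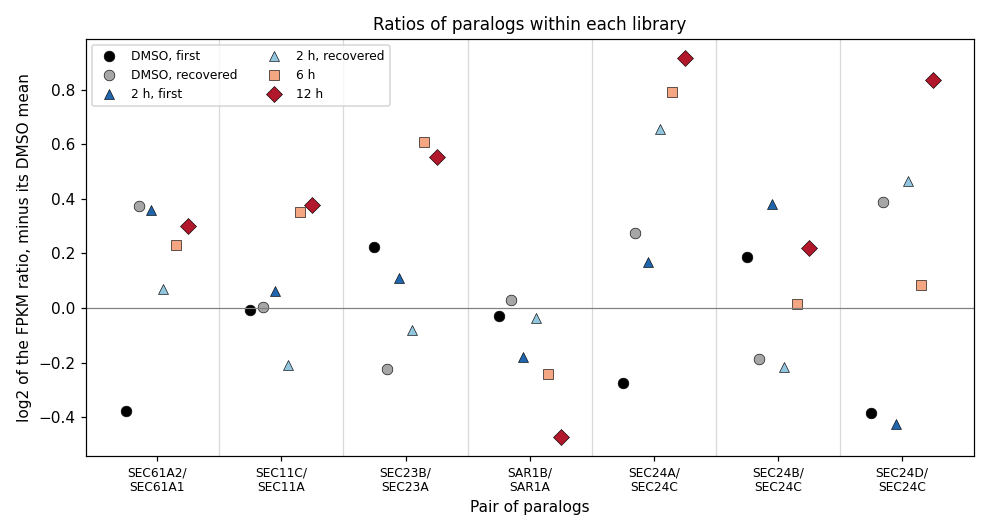
Log2 of the FPKM ratio of 7 pairs of paralogs, minus its DMSO mean (vertical axis), with a symbol for each of the 6 libraries. The 6 h and 12 h symbols lie above all others for SEC11C over SEC11A, SEC23B over SEC23A and SEC24A over SEC24C, and below them for SAR1B over SAR1A.

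The COPI coat has an outer cage of COPA, COPB2 and COPE and an inner layer of COPB1, COPG1, COPZ1 and ARCN1. Its 7 genes had median log2 fold changes of -0.0084, 0.039 and 0.048 (0.12 after 2 h without the recovered DMSO library and -0.062 after 6 h without the first), and a range of -0.26 to 0.23 after 12 h. COPE stood at 97.4 and 95.2 FPKM in DMSO, 86.0 and 89.8 after 2 h, 98.9 after 6 h and 113 after 12 h. It was below both DMSO libraries after 2 h and above both after 12 h (log2 fold change 0.23, limma adjusted p = 0.78). COPG1 stood at 57.7 and 80.7 FPKM in DMSO, 57.7 and 68.4 after 2 h, 51.4 after 6 h and 56.8 after 12 h. The late libraries of COPG1 lay below both DMSO libraries, closer to the first (log2 fold change -0.26, limma adjusted p = 0.85).

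COPB2 was at 81.2 and 97.2 FPKM in DMSO and 98.5 FPKM after 12 h. COPA (31.3 to 41.4 FPKM), COPB1 (48.2 to 58.0 FPKM), COPZ1 (81.25 to 94.99 FPKM) and ARCN1 (49.1 to 55.7 FPKM) lay between the DMSO libraries after 12 h, with log2 fold changes from -0.090 to 0.055. COPZ1 had a 12 h log2 fold change of -0.0052, and its limma 95% interval of -0.56 to 0.55 was the only member interval within 1.5-fold at that time. For COPE, 21.818% of exon bases are shared with AC002985.1.

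Neighbouring steps of the secretory pathway were read from 79 further genes, of which 78 were among the genes tested: 12 of the oligosaccharyltransferase, which adds sugars to chains in the translocon, 12 of the ER membrane complex and TRAM, 7 of tail-anchor targeting, 20 of 21 of ER exit sites and cargo receptors, 22 of ARF and ER to Golgi fusion, and 5 regulators of secretory genes. More than 2-fold higher than DMSO were 0 of 78 after 2 h (2.32% of all genes), 1 after 6 h (5.66%) and 2 after 12 h (6.48%), and 0 were more than 2-fold lower at any time. Their median log2 fold change was -0.027, 0.027 and 0.030. Limma called 0 of 78 after adjustment at each time, and 5 of 78 had an unadjusted p under 0.05 after 12 h (9.19% of all genes). The 2 genes past 2-fold after 12 h were GOSR2 and XBP1.

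GOSR2, a SNARE of ER to Golgi traffic, stood at 39.6 and 23.7 FPKM in DMSO, 35.5 and 30.4 after 2 h, 42.7 after 6 h and 67.1 after 12 h. The 12 h library was above all others, with a log2 fold change of 1.13, or 0.76 and 1.495 against the first and recovered DMSO libraries. XBP1, the transcription factor spliced by IRE1, stood at 20.3 and 49.8 FPKM in DMSO, 40.7 and 64.0 after 2 h, 93.8 after 6 h and 82.8 after 12 h. It was thus above both DMSO libraries after 6 h and 12 h, with log2 fold changes of 1.56 and 1.38. The 12 h value was 2.02 against only the first DMSO library and 0.73, under 2-fold, against only the recovered one, and the DMSO libraries differed more than 2-fold between themselves.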

How the data were processed

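By the study's methods and the submitters' processing notes, single reads were trimmed with Trim Galore, aligned with TopHat2 2.0.8 and quantified with Cufflinks and Cuffdiff 2.1.1. The column definitions name hg38, although a mouse build stands in the methods. The authors deposited FPKM for both sides of 4 comparisons, each scaled on its own, with their fold changes and p-values, which were not used. No counts were used here. The methods give an approximate number of reads sequenced for each sample, but the FPKM values carry no count behind a gene, so no counting error is given.

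The replicate 2 columns were read as means of both libraries, because their most frequent ratio to the first library was 0.526 (DMSO, 811 rows) or 0.509 (2 h, 966 rows). Of rows averaging at least 1 FPKM over both columns, 0 lay more than 2-fold below the first library. More than 2-fold above it lay 559 (DMSO) and 329 (2 h). The most frequent ratio was taken as the share of the first library, and replicate 2 was calculated as the remainder over that share. A remainder under 0.2% of the mean was set to 0. This rests on the values alone. The 6 h and 12 h columns were divided by 0.972 and 0.994, the ratios of the shared DMSO columns. Rows of a symbol were summed (33085 rows, 1 without a gene left out). Log2(FPKM + 0.1), which understates changes of low genes, was tested with limma 3.58.1 (R 4.3.3) over 13287 genes, Benjamini-Hochberg adjusted: the DMSO and 2 h pairs alone at 2 h (2 residual degrees of freedom), and all 6 libraries in 4 groups at 6 h and 12 h. Scripts were tested on simulated data. Python 3.11.15, pandas 2.3.3 and numpy 2.4.6 were used. Positions and shared exons came from GENCODE 29 (SRPR is listed there as SRPRA), promoters from RefSeq. Whether counting used strand is not given in the sources used here.

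The members and lists were chosen with earlier results of these data known. The genes given with every library were the highest and lowest member of each group at 12 h, paralogs, and other pathway genes past 2-fold at 12 h. Values of further members were added after their values were seen. Alternatives were pseudocounts of 0.01 and 1, no filter or a mean FPKM of at least 5, other scalings, repeated symbols, the columns as deposited, a replicate block and leaving out each replicate. The 1.5-fold limit was added after the data were examined.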

Additional observations from a re-analysis of the deposited data

Results flagged for a closer look

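For 5 of 40 members (12.5%) both 2 h libraries lay on 1 side of both DMSO libraries and a later library on the other side, beside 5% of all genes. The DMSO libraries of all genes lay farther apart in the median than those of the members. The difference between the later library and the 2 h mean was then taken from the limma fit over all 6 libraries. These members were picked by the same values, which lowers the p-values, so they describe the differences and are no test of them. For SRPR it was 0.19 at 6 h (adjusted p = 1) and 0.48 at 12 h (unadjusted p = 0.073, adjusted p = 0.81) on the log2 scale. SEC62 went the other way, by -0.19 at 6 h (limma adjusted p = 1) and -0.27 at 12 h (adjusted p = 0.85). COPE gave 0.17 at 6 h (limma adjusted p = 1) and 0.36 at 12 h (unadjusted p = 0.14, adjusted p = 0.82). SEC61G gave 0.27 at 12 h (limma adjusted p = 0.86) and SAR1B 0.11 (limma adjusted p = 0.95). None of these differences passed the threshold, and each was under 1.5-fold.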

How the results depend on the processing

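The counts of members called by limma and of members past 2-fold were 0 under every alternative run (41 and 78 values). Limma called few genes of any kind, so its count of 0 among 40 members carries little information. With no member called, there was no called direction to turn. What moved were the counts relative to both DMSO libraries and the small medians. With upper-quartile scaling, 2 members were above both DMSO libraries at 2 h, and the member median was 0.057 (6 h) and 0.17 (12 h). With median-ratio scaling the median was -0.061 (2 h) and 0.051 (6 h). With the replicate 2 columns read as single libraries, 4 members were above and 14 below both DMSO libraries at 2 h, 16 were below both at 12 h, and the median was -0.057 (2 h) and 0.045 (6 h). Each such column holds the first library, so the values of a group mostly lie closer together, which also eases the rule. Leaving out a replicate makes the rule of lying outside both DMSO libraries easier to meet, so these counts could only stay or rise at each time. At 2 h they were 7 to 9 members above and 11 to 21 below DMSO. The 2 h median was then -0.076 to 0.023, the positive value being without the recovered 2 h library. At 6 h, 10 to 16 members were below DMSO, the highest number being without the first DMSO library, and the median was 0.048 (without the recovered DMSO library) to 0.099. At 12 h, 9 to 16 members were below DMSO, the highest number being without the recovered DMSO library. Of the 15 group medians (5 groups at 3 times), 8 turned sign with some library left out: SRP (-0.076 to 0.062), SEC61 (-0.18 to 0.033), COPII (-0.038 to 0.031) and COPI (-0.088 to 0.12) at 2 h, signal peptidase (-0.037 to 0.11), COPII (-0.00023 to 0.079) and COPI (-0.062 to 0.041) at 6 h, and signal peptidase (-0.13 to 0.12) at 12 h. Another scaling turned 4 of these 8 and no other. At 2 h, leaving out a library partly sets first against recovered libraries, whose difference was partly shared by DMSO and 2 h. Between same-numbered libraries the 2 h member median was -0.030 (first) and -0.050 (recovered). It was 0.0065 and -0.020 for SRP, -0.089 and -0.13 for SEC61, 0.022 and -0.0083 for COPII, and -0.022 and -0.057 for COPI. With the columns as deposited, COPI was at -0.025 (12 h).

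The groups share replicate numbers, but the labels name no shared day or culture. With the replicate block, limma called 0 members (0 of 13287 genes), and 0 members but 14.1% of all genes had an unadjusted p under 0.05. Deviations of same-numbered libraries had a correlation of 0.369 over 13287 genes and 0.858 over the 40 members, of which 32 had the same direction of the replicate difference in DMSO and 2 h. Among genes averaging at least 5 FPKM, the 6 h library was nearer to the first DMSO library for 30 of 39 members (68.3% of these genes). The 12 h library was nearer to it for 24 (51.2%).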
